A study of Danio rerio with 10 samples.

Results

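Cathepsins are proteases that break down proteins, mostly in the acid interior of lysosomes, and 9 zebrafish genes of this kind are described here: ctsla, ctss2.1, ctsba, ctsd, ctsz, ctsc, ctsh, ctsk and ctsa. They were matched by gene name, with ctsla taken as ENSDARG00000007836, among the 33737 genes of each count table. Counts were at hand for 7 of them, and ctsc and ctsa were not analysed here. The set was put together with results of these libraries known. ctsla and ctss2.1 were chosen by their fold changes and p-values between Amh and control with libraries paired by replicate number, and the other genes belong to the same protease group. Differences between Amh and control are therefore given for all 7 genes as descriptions and not as tests of a prediction.

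Testis tissue of adult zebrafish of wild-type genotype was incubated for 3 days. In the Amh group (5 libraries) the tissue received the androgen 11KT together with Amh, anti-Müllerian hormone, a Sertoli cell hormone related to TGF-beta. In the control group (5 libraries) it received 11KT without Amh, so that 11KT was present in both groups. The design text calls the samples biological replicates. The study asks how Amh acts on spermatogonial differentiation in relation to the growth factor Igf3, and these libraries hold its Amh arm.

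Most cathepsins are cysteine proteases that are made as inactive precursors, carried to lysosomes and activated there by removal of a propeptide. A few belong to other classes, such as the aspartic protease cathepsin D and the serine carboxypeptidase cathepsin A. In the testis, Sertoli cells take up residual bodies and dying germ cells and digest them in lysosomes, and macrophages between the tubules are also rich in these enzymes. In rodents cathepsin L is a well-known product of Sertoli cells.

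Library totals ran from 10974579 to 15448069 counts with Amh and from 8455226 to 11934679 counts in control. Within a number the Amh library had 1.20 to 1.30 times the counts of its control. The 7 cathepsins together took 0.161% to 0.309% of a library's counts. As a check of the tissue, germ cell markers such as DDX4 and DAZL had a summed level of 4388 to 5085 CPM with Amh and 4693 to 5554 CPM in control (10 genes). Levels here are CPM, read counts over the library size after TMM scaling. Both groups number their libraries 1 to 5, and libraries of the same number deviated from their group means together (r = 0.49 to 0.784 across 19420 genes, against -0.338 to 0.13 for other numbers). All 10 libraries lay closest to the library of their own number in the other group. Numbers were therefore treated as pairs in an alternative fit, with the replicate number as a block (called paired here). The main fit had group as its only term. What a number stands for is not given in the sources used here.

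ctsla, a cathepsin L, stood higher with Amh in every replicate number, at 1.31 to 1.59 times its control. Its level was 745, 1026, 581, 779 and 838 CPM in Amh libraries 1 to 5, against 470, 780, 424, 575 and 621 CPM in control libraries 1 to 5. The Amh library was the higher one within each number, although the groups overlapped, since control library 2 stood above the Amh libraries 1 and 3 and level with Amh library 4. Mean levels were 794 ± 161 CPM with Amh and 574 ± 140 CPM in control (SD, n = 5 each). Within numbers the ratio of Amh to control was 1.59 in number 1 and 1.31 to 1.37 in numbers 2 to 5. The level of ctsla differed by 2.42 times between the lowest and the highest library. Choosing ctsla by its p-value with libraries paired favours even ratios, so nothing is read from their evenness. The log2 fold change was 0.48 ± 0.0723 with numbers as a block and 0.47 ± 0.195 without (SE, edgeR).

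With the block, ctsla had a Benjamini-Hochberg adjusted p = 0.0413 in edgeR's quasi-likelihood test over 19420 genes, the value through which it was chosen. The threshold was 0.05, and the next smallest adjusted p among the 7 was that of ctss2.1 at 0.371, far from passing. Without the block 0 of the 7 passed and 0% of all genes did. 1 gene of the 7 passed with the block, beside 0.0206% of all genes, and because the choice of ctsla used this comparison nothing is read from that share or from those that follow. In the direction of higher with Amh, 0.0103% of all genes passed. Paired DESeq2 and paired limma-voom also passed ctsla alone of the 7, beside 0.129% and 0.0412% of all genes. At an unadjusted p under 0.05 in the paired edgeR fit, 5 of the 7 were higher with Amh (ctsla, ctss2.1, ctsba, ctsz and ctsh), beside 3.84% of all genes. These 5 were also higher with Amh in at least 4 of 5 numbers, as were 21.3% of all genes. Amh and control libraries overlapped in all 7, and 0.139% of all genes had groups without overlap. Leaving out number 1, 3, 4 or 5 moved the adjusted p of ctsla in the paired fit to 0.177, 0.0857, 0.227 and 0.409, while without number 2 it was 0.00115. In all of these fits its log2 fold change stayed between 0.43 and 0.50.

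**Figure D1:**
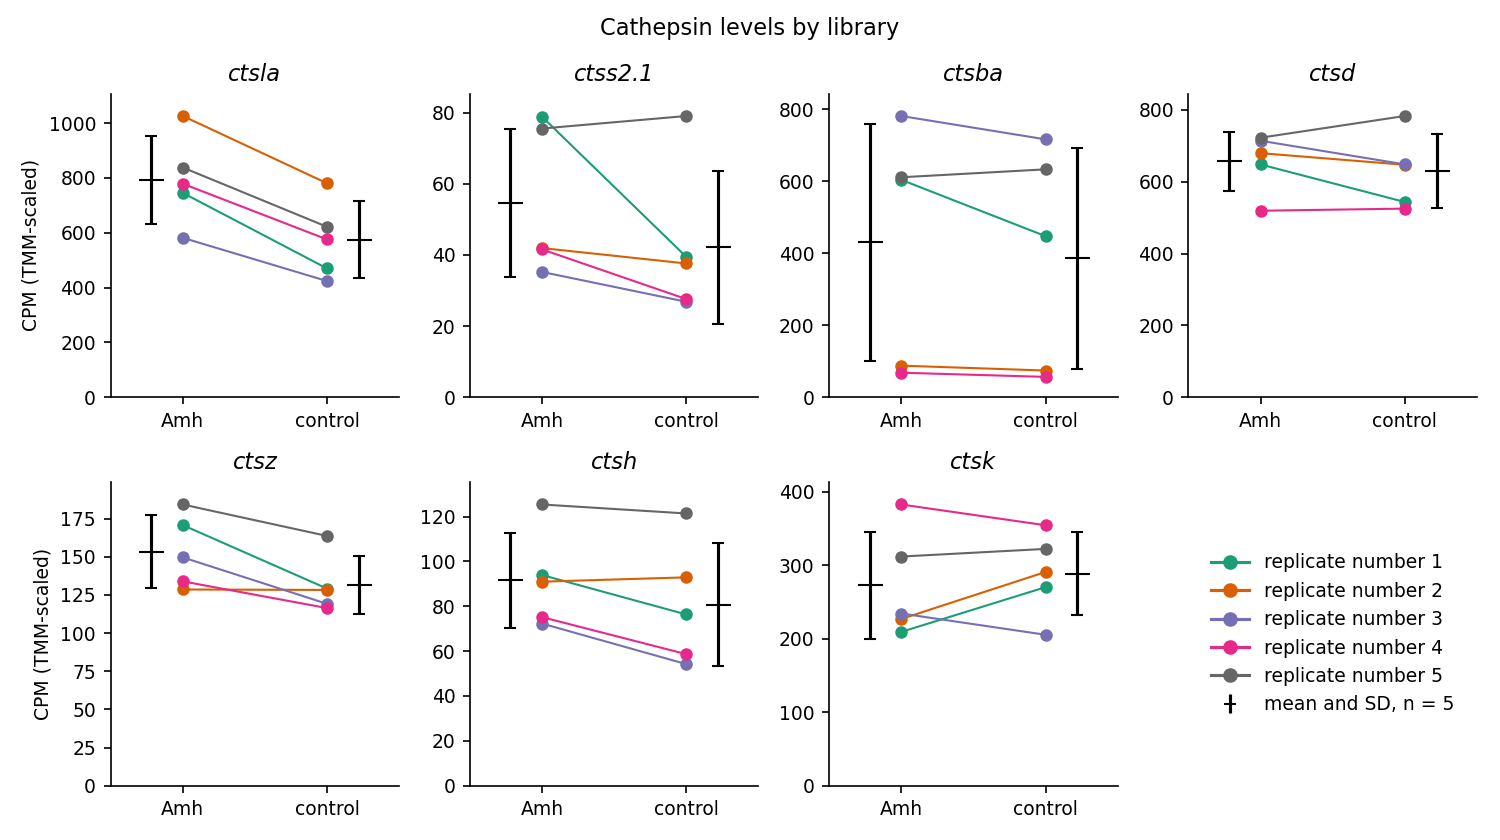
Level of each of the 7 cathepsins in CPM (vertical axes, each from 0) in Amh and control libraries. Each point is a library, lines join libraries of the same replicate number, and bars show the mean and SD (n = 5). Each line of ctsla is higher at the Amh end. The lines of ctsba fall into a low pair (numbers 2 and 4) and a high trio (numbers 1, 3 and 5) in both groups.

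The 5 genes whose levels followed ctsla most closely over the 10 libraries, among 17119 genes with a mean log2 CPM of 1 or more, were cnbpb, NAV3, KIFBP, MIEF1 and SMC1A (Pearson r = 0.936, 0.926, 0.923, 0.919 and 0.919). cnbpb encodes a nucleic acid-binding zinc finger protein and SMC1A a cohesin subunit. Each of these 5 genes was higher with Amh in 5 of 5 numbers, as were 4.65% of all genes tested. Their paired log2 fold changes were 0.10 (SMC1A) to 0.30 (NAV3). The group took 40.6% of the variance of ctsla in log2 CPM. Genes picked for a high r with it therefore tend to share its direction, and nothing is read from that direction. The 5 nearest in their log2 ratios alone were PSMA8, mxd, DNMT3A, ttf1.5 and ENSDARG00000076430 (r = 0.995 to 0.999 over 5 numbers). Their mean differences lay on either side of 0, from -0.46 for mxd to 0.40 for DNMT3A (paired log2 fold change). With 5 ratios and this many genes, such r describe a likeness of shape only.

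ctss2.1, a cathepsin S of the kind that trims the MHC class II invariant chain in mammals, had the widest range of ratios. It stood at 78.9, 41.9, 35.2, 41.6 and 75.6 CPM in Amh libraries 1 to 5, against 39.5, 37.6, 26.8, 27.6 and 79.1 CPM in control libraries 1 to 5. The Amh library was higher in 4 of 5 numbers and the groups overlapped. In number 1 the ratio was 1.999, in numbers 2 to 4 it was 1.12, 1.31 and 1.51, and in number 5 it was 0.955. The libraries numbered 5 were high in both groups, and control library 5 stood apart from the other 4 controls. The log2 fold change was 0.41 ± 0.121 with the block and 0.37 ± 0.323 without (SE). Without number 1 the paired value was 0.25, and it passed only without number 2 (0.47, adjusted p = 0.0402) or with no filter on low counts (0.41, adjusted p = 0.0167, paired edgeR).

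In the RefSeq gene order of assembly GRCz12tu, ctsk, ctss2.1 and ctss2.2 lie next to each other on chromosome 16. These neighbours were not closely alike over the libraries (10 libraries in 5 numbers, a description). Pearson r of log2 CPM was 0.06 between ctss2.1 and ctsk and -0.25 between ctss2.1 and ctss2.2. Between ctsk and ctss2.2 it was 0.33. ctss2.2, another cathepsin S gene and no member of the set, stood at 26.4, 17.5, 32.3, 39.3 and 25.5 CPM in Amh libraries 1 to 5, against 33.0, 18.5, 35.02, 37.7 and 31.2 CPM in control libraries 1 to 5. It was lower with Amh in 4 of 5 numbers (paired log2 fold change -0.15 ± 0.0905, SE). How reads shared by ctss2.1 and ctss2.2 were assigned is not given in the sources used here. The difference between both genes in their ratios was not tested.

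ctsk, cathepsin K, is the collagen-degrading cathepsin known from mammalian osteoclasts. Its level was 209, 227, 234, 383 and 312 CPM in Amh libraries 1 to 5, against 270, 291, 205, 355 and 322 CPM in control libraries 1 to 5. It was the one gene of the 7 with a fold change below 0 (paired log2 fold change -0.09 ± 0.0885, SE), and its direction split: the Amh library was lower in numbers 1, 2 and 5 and higher in 3 and 4. The ratios of 0.775 in number 1 and 0.780 in number 2 were the lowest ratios of any of the 7 genes within a number.

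**Figure D2:**
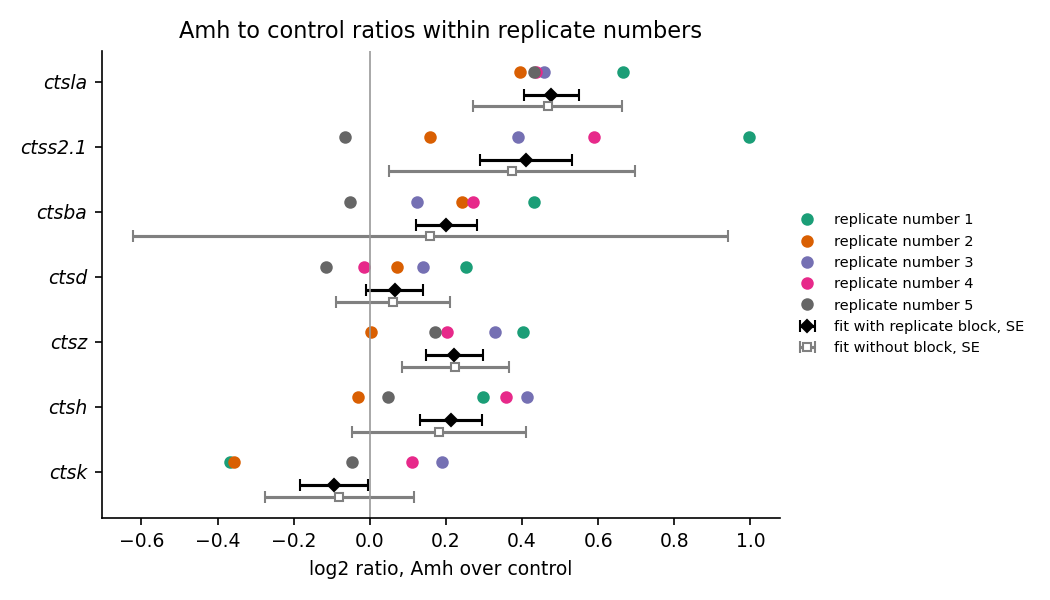
Log2 ratio of Amh to control for each cathepsin (horizontal axis). Coloured points are the 5 replicate numbers, black diamonds the paired fit and open squares the fit without the block, both with SE. The ratios of ctsla lie between 0.39 and 0.67, those of ctss2.1 between -0.07 and 0.996, and those of ctsk on both sides of 0.

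ctsba, a cathepsin B that acts both as an endopeptidase and as a carboxypeptidase, showed a pattern of another kind. Its level was 604, 87.6, 782, 68.0 and 612 CPM in Amh libraries 1 to 5, against 448, 74.0, 717, 56.4 and 634 CPM in control libraries 1 to 5. The libraries numbered 2 and 4 held 56.4 to 87.6 CPM whatever the group, and the other 6 libraries held 448 to 782 CPM. In counts, these were 572 to 953 reads against 4992 to 10165 reads, so both levels were far above the limit of detection. The highest library stood 13.9 times above the lowest.

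The replicate number took 99.3% of the variance of ctsba in log2 CPM and the group 0.43%, beside medians of 77.2% and 2.86% over all genes tested. Among 2096 genes with a mean of at least 100 CPM, 7 (ctsba included) had a range over the 10 libraries as wide as its 3.79 on the log2 scale. Within numbers the ratio of Amh to control was far smaller, from 0.965 in number 5 to 1.35 in number 1, and was above 1 in 4 of 5 numbers (paired log2 fold change 0.20 ± 0.0798, SE). Without the block the same difference was 0.16 ± 0.782 (SE). The table of gene names carries 1 ID under CTSB, ENSDARG00000055120, which was taken as ctsba. Its paralogue ctsbb was not analysed here, and to which gene shared reads were counted is not known.

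The genes around ctsba on chromosome 17, in the RefSeq order, did not carry a step of that size. Of the 3 nearest tested protein-coding genes on each side, xkr5b, gcfc2, ywhaqb and smyd2a ranged over 0.47 to 0.57 on the log2 scale across the 10 libraries. cgref1, the next gene after ctsba, stood at 8.17, 3.49, 15.2, 4.77 and 7.16 CPM in Amh libraries 1 to 5, against 8.25, 4.80, 11.3, 5.91 and 8.11 CPM in control libraries 1 to 5. It was lowest in the libraries numbered 2 and 4, as ctsba was, over a log2 range of 2.07. cenpf, a kinetochore protein gene 3 protein-coding genes away, ranged over 1.34 and was lowest in those numbered 2 within each group. These neighbours were picked after the values of ctsba had been seen, and no cause of the step was tested.

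**Figure D3:**
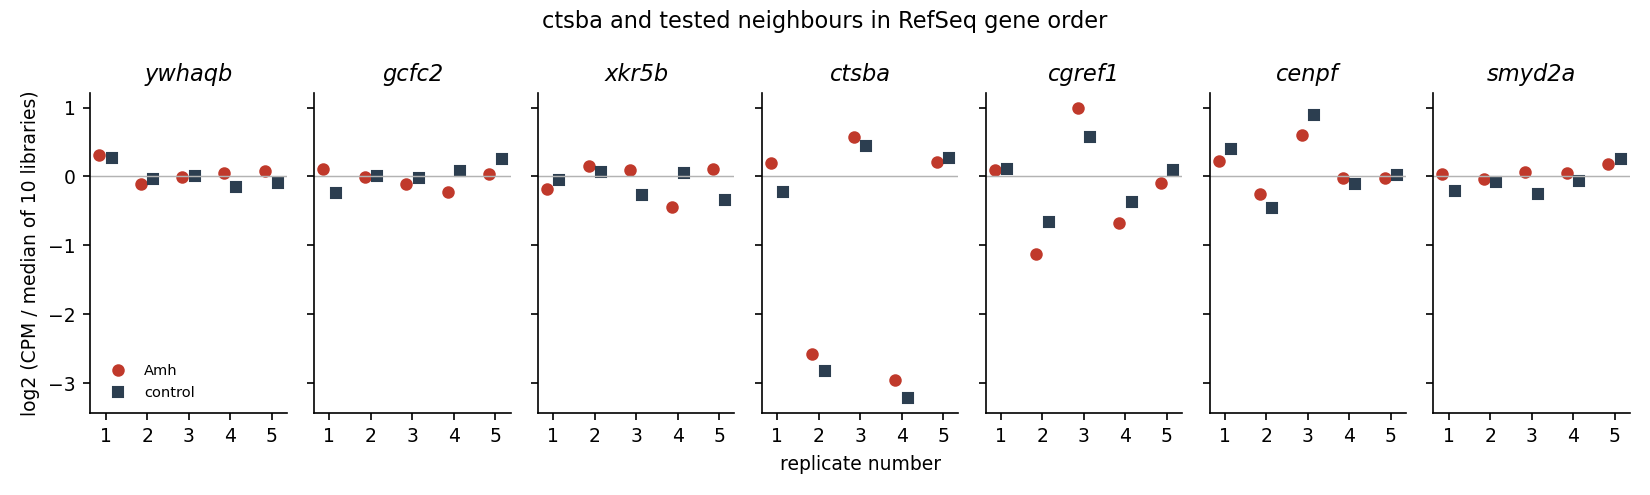
Level of ctsba and its tested neighbours in RefSeq gene order, as log2 of CPM over the median of the 10 libraries (vertical axis), by replicate number (horizontal axis). Circles are Amh and squares control libraries. In ctsba the libraries numbered 2 and 4 lie more than 2 log2 units below the others, while ywhaqb, gcfc2, xkr5b and smyd2a keep close to 0.

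ctsz, a cathepsin Z that removes single residues from the carboxyl end, was the other gene of the 7 that stood higher with Amh in every number. Its level was 171, 129, 150, 134 and 184 CPM in Amh libraries 1 to 5, against 129, 128, 119, 116 and 164 CPM in control libraries 1 to 5. In number 2 both libraries were level, with a ratio of 1.002, and elsewhere the ratio was 1.13 to 1.32. The groups overlapped. The paired log2 fold change was 0.22 ± 0.0748 (SE), and without number 2 it was 0.28 with adjusted p = 0.0442 (paired edgeR). Being higher with Amh in all 5 numbers, as ctsla and ctsz were, was found in 4.65% of the genes tested.

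ctsh, an aminopeptidase, had 93.9, 91.0, 72.3, 75.1 and 125 CPM in Amh libraries 1 to 5, against 76.3, 92.9, 54.2, 58.6 and 121 CPM in control libraries 1 to 5. It was higher with Amh in 4 of 5 numbers (paired log2 fold change 0.21 ± 0.0815, SE), with ratios of 1.23, 1.33 and 1.28 in numbers 1, 3 and 4 and of 0.979 and 1.03 in numbers 2 and 5. ctsd, the aspartic protease cathepsin D, had the narrowest range of the 7 over the libraries, at 519 to 723 CPM with Amh (median 679) and 525 to 783 CPM in control (median 647). Its range over the 10 libraries was 0.59 on the log2 scale, beside a median of 1.13 over all genes tested. That median includes genes with far fewer reads and does not rank ctsd among genes of its level. The paired log2 fold change of ctsd was 0.07 ± 0.0749 (SE), with the Amh library higher in 3 of 5 numbers.

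Over the 10 libraries, with the group difference included, 3 of the cathepsins behaved most alike. ctss2.1, ctsz and ctsh went up and down together, with Pearson r of log2 CPM of 0.91 (ctss2.1 and ctsz), 0.89 (ctss2.1 and ctsh) and 0.79 (ctsz and ctsh) over 10 libraries. All 3 were highest in libraries numbered 5, apart from ctss2.1 with Amh, where library 1 was slightly higher. ctsd had r of 0.53 with ctss2.1, 0.62 with ctsz, 0.62 with ctsh and 0.58 with ctsba, and ctsba had r of 0.59 with ctsz. ctsla had r of 0.61 with ctsh, 0.45 with ctss2.1 and -0.44 with ctsba. ctsk had r between -0.51 (ctsba) and 0.17 (ctsh). The 10 libraries share 5 numbers, so they are fewer than 10 independent points, and these r describe this set of libraries.

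**Figure D4:**
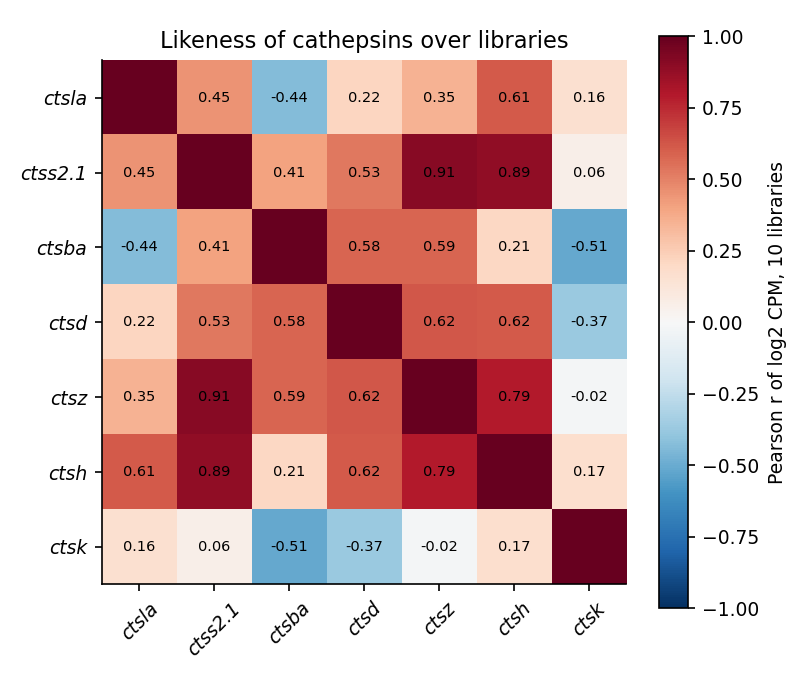
Pearson r of log2 CPM between each pair of cathepsins over the 10 libraries (colour scale from -1 to 1, value in each cell). ctss2.1, ctsz and ctsh form a group with r of 0.79 to 0.91, while ctsk has no r above 0.17.

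The remaining cathepsins and related lysosomal proteases did not lean toward higher levels with Amh. Of 18 names in that list 10 genes had counts and 8 passed the filter on low counts, of which 3 had a paired log2 fold change above 0 and 0 passed, with or without the block. Their median was -0.04, beside -0.01 for all genes tested. The median of the 7 described cathepsins was 0.21, but ctsla and ctss2.1 among them were chosen by this comparison, so nothing is read from its distance to the others. LGMN, legumain, a lysosomal endopeptidase that processes other cathepsins, stood at 428 ± 51.9 CPM with Amh and 421 ± 33.9 CPM in control (SD, n = 5 each). ctsf, cathepsin F, stood at 120 ± 14.8 CPM with Amh and 112 ± 10.3 CPM in control, and napsa, an aspartic protease, at 51.7 ± 22.6 CPM with Amh and 52.3 ± 23.4 CPM in control. ctsl.1, a further cathepsin L gene, had 4 to 60 reads per library, and ctslb and ctsll, at 0 to 4 and 1 to 14 reads, were below the filter.

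Cathepsin inhibitors did not differ in one direction either. Among 9 tested genes of that list 5 lay above and 4 below 0, with a median of 0.04, and 0 passed. cst3, the secreted inhibitor cystatin C, stood at 194 ± 38.1 CPM with Amh and 207 ± 17.6 CPM in control, and cst14a.2, a cystatin, at 82.0 ± 17.8 CPM with Amh and 77.1 ± 16.8 CPM in control (SD, n = 5 each). kng1, kininogen, which carries cystatin domains, stood at 62.4 ± 2.83 CPM with Amh and 59.6 ± 8.95 CPM in control.

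Most other genes of lysosomal hydrolases and membranes had values above 0 with Amh, without single genes passing in edgeR with the low-count filter and all libraries. Of 47 tested hydrolases 41 had a paired log2 fold change above 0, and of 39 tested genes of the lysosomal membrane and proton pump 31 did, where 48.8% of all genes did. Their medians were 0.13 and 0.10 on the log2 scale. With the low-count filter and all libraries, 0 genes of either list passed in edgeR, with or without the block. In the paired fit 12 hydrolases had an unadjusted p under 0.05 (10 higher with Amh, 2 lower). So did 8 membrane or pump genes (7 higher, 1 lower), beside 8.72% of all genes.

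Single genes of both lists differed in size and evenness. The paired log2 fold change of GALNS, a sulfatase, was 0.44 ± 0.108 (SE, higher in 5 of 5 numbers). FUCA2, a fucosidase, was at 0.12 ± 0.0751 and PSAP, the precursor of the saposins, at 0.09 ± 0.0852. Among membrane and pump genes, atp6v1e1b, a subunit of the proton pump, was at 0.30 ± 0.0774 (higher in 5 of 5), LAMP2, a major membrane glycoprotein, at 0.31 ± 0.0947 (4 of 5) and the tetraspanin CD63 at 0.24 ± 0.0736 (5 of 5). The pump subunits ATP6V0C and ATP6V1H were at 0.19 ± 0.0811 and -0.03 ± 0.0763. Without number 2, 7 of 149 tested genes of all 6 lists passed in paired edgeR, beside 229 of 19661 genes in all. Each of the 7 was higher with Amh (LAMP2, CD63, atp6v1e1b, ATP6V0C, GM2A and NPC2 among them), as were 125 of the 229. Without number 1, 3, 4 or 5, 0 genes of these lists passed. With all numbers and no low-count filter, 3 of 157 list genes passed in paired edgeR (2 higher with Amh, 1 lower). Of all genes 113 of 29017 passed there. GALNS was among those higher (adjusted p = 0.00642), and grna of the hydrolases was the lower one (log2 fold change -0.41, adjusted p = 0.0104).

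The other 2 lists did not lean that far. Genes of sorting to lysosomes and of their transcription had a median of 0.08 (15 of 22 above 0), with AP1B1, an adaptor subunit, at 0.19 ± 0.0749 and HPS1, a factor in making lysosome-related organelles, at -0.22 ± 0.0869 (SE, lower in 5 of 5 numbers). VPS41 and VPS16, tethering factors, were at -0.02 ± 0.0775 and 0.06 ± 0.0733. Autophagy genes had a median of -0.02 (9 of 24 above 0). SQSTM1, the cargo receptor p62, was at 0.10 ± 0.0907, gabarapa at -0.05 ± 0.0769, ATG14 at 0.02 ± 0.076, OPTN at 0.21 ± 0.0758 and ATG12 at 0.22 ± 0.129 (paired log2 fold change, SE).

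**Figure D5:**
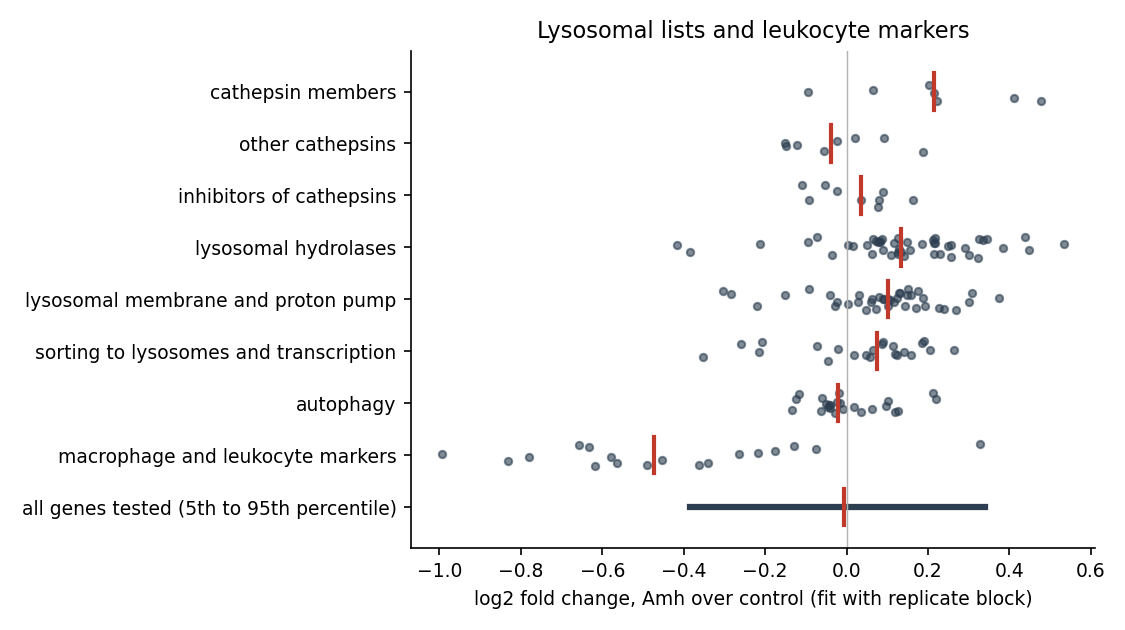
Paired log2 fold change of Amh over control (horizontal axis) for each tested gene of the lysosomal lists and the leukocyte markers. Points are genes and red bars list medians, and the bottom row shows the median and the 5th to 95th percentile of all genes tested. The medians are 0.21 for the 7 described cathepsins (top row, cathepsin members), 0.13 for hydrolases and -0.47 for macrophage and leukocyte markers. In the top row ctsla and ctss2.1 were chosen by this comparison.

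Most macrophage and leukocyte markers ran the other way from ctsla, by amounts that differed between genes. The summed level of all these markers was 349, 234, 331, 407 and 336 CPM in Amh libraries 1 to 5, against 473, 330, 350, 564 and 495 CPM in control libraries 1 to 5, lower with Amh in each number. Of 26 marker genes with counts 18 were tested, and 17 of them had a paired log2 fold change below 0, beside 9944 of all 19420 genes. In paired edgeR 2 passed as lower with Amh, beside 0.0206% of all genes passing in either direction. These were cd74a, an MHC class II invariant chain (adjusted p = 0.0296), and mhc2dab, a class II chain (adjusted p = 0.0413). They were the only 2 of all 19420 genes to pass as lower. The marker list was chosen with earlier results of these data known, so nothing is read from these counts. Of the defining markers csf1rb had at most 0.690 CPM in any library, and c1qc and 1 of 3 MPEG1 genes had 0 reads in all 10. The MPEG1 gene with the most reads, a perforin-like macrophage marker, stood at 21.8 CPM with Amh and 18.01 CPM in control on average. Much of the summed level came from cd74a and cd74b, with means of 62.0 and 106 of 332 CPM with Amh. In control their means were 95.9 and 136 of 443 CPM. The paired log2 fold change was -0.62 for cd74a and -0.36 for cd74b. It was -0.26 for CORO1A, -0.18 for cybb and -0.08 for spi1a. Other markers outside class II lay further below 0, such as ptprc (-0.56), IRF8 (-0.58), SPI1 (-0.66) and marco (-0.99). The only tested marker above 0 was the MPEG1 gene with the most reads, at 0.33. In bulk tissue fewer cells of a type and less RNA per cell cannot be told apart.

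Summed levels of Sertoli cell markers were higher with Amh in 5 of 5 numbers (1712 to 2716 CPM with Amh, 1375 to 2130 CPM in control, 14 genes). Most of this sum was gsdf, with means of 1259 of 2050 CPM with Amh and 1011 of 1712 CPM in control. Of 13 tested genes of the list 10 had a paired log2 fold change above 0, beside 48.8% of all genes. The 3 below 0 were wt1b (-0.05), a CLDN11 gene (-0.27) and igf3 (-0.75), and DMRT1 was at 0.02. Summed levels of germ cell markers were lower with Amh in 5 of 5 numbers, with means of 4659 CPM with Amh and 4986 CPM in control. Their median paired log2 fold change was -0.09 (10 genes, 0 passing in edgeR). Erythrocyte markers were also lower in 5 of 5 numbers (47.2 to 117 CPM with Amh and 67.0 to 156 CPM in control, 6 genes). Summed levels of Leydig cell markers were lower with Amh in 4 of 5 numbers. Much of that sum was insl3, with means of 82.4 of 165 CPM with Amh and 100 of 212 CPM in control. Single Leydig cell markers went both ways. Of 9 tested genes 6 had a paired log2 fold change below 0 and 3 above, beside 48.8% of all genes above 0. The 3 above 0 were hsd3b2 (0.51), NR5A1 (0.39) and a CYP11A1 gene (0.06). The part of these markers in the cathepsin values was not tested. Apart from the shares of summed levels, which carry no correction for length, levels were not compared between genes, since no transcript lengths were used here.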

How the data were processed

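Each library came with 1 deposited table of counts, whole numbers of reads for every Ensembl gene ID. Per the submitters' processing notes, FastQC 0.10.1, TopHat2 2.0.5, SAMtools 0.1.18, HTSeq and DESeq were used with genome build Zv9. Annotation release, counting mode and strandedness: not given in the sources used here.

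Names were matched to IDs through a gene name table (21939 of 33737 genes with a symbol), exactly, then in any case, then without a final a or b. Genes kept by filterByExpr (19420) were scaled by TMM and compared with edgeR 4.0.16 (quasi-likelihood F test, Benjamini-Hochberg adjustment, threshold 0.05) in R 4.3.3, with group as the only term and, as an alternative, with the replicate number as a block. DESeq2 1.42.0, limma-voom (limma 3.58.1), other scalings, no low-count filter, thinning to 8455226 counts and leaving out libraries were also run. The fits were tested on simulated data. Log2 CPM used a prior count of 2, and SE is the log2 fold change over the square root of F. Biological variation (edgeR's coefficient) came to 31.7% in the fit of group only and 11.9% in the blocked fit. Depth, at 0.18 to 0.351 CPM for 3 counts, was no limit for the 7 cathepsins.

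The members, lists and tests were chosen with earlier results of these data known. The rule for named genes took all members, the 3 highest genes and the 2 with the smallest paired p of each lysosomal list, and the 5 genes most like ctsla by each of both measures. Values of 1 gene that this rule takes are not reported here. Any other gene was named with its values already seen. RefSeq (GRCz12tu) served for gene order only.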

Additional observations from a re-analysis of the deposited data

Results flagged for a closer look

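A library stood apart from the other 4 of its group in 4 of the 74 groups of printed values (Dixon's test at 95%, which flags about 1 group in 20 by chance). ctss2.1 had 79.1 CPM in control library 5, against 26.8 to 39.5 CPM in the other controls. ctsz had 164 CPM in the same library, against 116 to 129 CPM in the other controls. The Amh libraries numbered 5 were also high in both genes. Leaving out control 5 moved the unpaired log2 fold change of ctss2.1 to 0.73 and that of ctsz to 0.32, each still short of the threshold. ctsl.1 had 3.61 CPM in Amh library 5, against 0.961 to 1.497 CPM in the other Amh libraries. Control library 5 was also high in ctsl.1, at 4.53 CPM against 0.431 to 2.24 CPM in the other controls. The gene had at most 60 reads in any library. ATP6V1H had 305 CPM in control library 3, against 180 to 207 CPM in the other controls.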

How the results depend on the processing

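In unpaired fits 0 genes passed, over all genes, among the cathepsins and among the lysosomal lists, with RLE or upper-quartile scaling, no low-count filter, DESeq2, limma-voom, thinned counts and without any single library (at an unadjusted p under 0.05, edgeR had 131 genes, DESeq2 162 and limma-voom 136). With the replicate block 4 genes passed, 25 with DESeq2, 8 with limma-voom, 3 with RLE scaling, 113 with no low-count filter and 4 after thinning, of which the cathepsins made up 1, 1, 1, 1, 2 (ctsla and ctss2.1) and 1. The lysosomal lists gave 0 passing genes with the block, 1 with DESeq2 and 3 with no low-count filter. Leaving out a number in the paired fit gave 0 to 229 genes, 0 to 3 cathepsins and 0 to 7 list genes, the highest each time without number 2. Leaving out single libraries without the block moved ctsba between -0.17 and 0.51 and ctsk between -0.23 and 0.0058 (log2), below 0 in 4 fits for ctsba (without control 2, control 4, Amh 3 or Amh 5) and above 0 in 2 for ctsk (without control 4 or Amh 1). ctsla, ctss2.1, ctsd, ctsz and ctsh stayed above 0 in all of these alternatives. For ctsla the adjusted p ran from 9.8e-07 to 0.409 over the other paired settings, and it passed in all of them except those without number 1, 3, 4 or 5. The cause of these changes was not tested.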

Other observations

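The step of ctsba between replicate numbers had company elsewhere in the transcriptome. Among genes with a mean log2 CPM of 1 or more, 5 lay closest to ctsba over the 10 libraries. They were ENSDARG00000071707, si:dkey-90m5.4, UTP4, ENSDARG00000073898 and PINK1 (Pearson r = 0.989, 0.986, 0.985, 0.981 and 0.979). ENSDARG00000071707 and ENSDARG00000073898 stood at 0 to 0.0985 CPM in the libraries numbered 2 and 4 of either group. In the other libraries they stood at 5.72 to 22.6 CPM. UTP4, a factor of ribosome assembly, stood at 81.3, 40.9, 92.1, 30.5 and 80.2 CPM in Amh libraries 1 to 5, against 84.9, 35.7, 94.3, 35.9 and 82.7 CPM in control libraries 1 to 5. PINK1, a kinase of mitochondrial quality control, stood at 50.0, 13.2, 48.2, 11.7 and 44.2 CPM in Amh libraries 1 to 5, against 57.1, 11.1, 49.3, 8.08 and 46.1 CPM in control libraries 1 to 5. Both were low in the libraries numbered 2 and 4 of either group, as ctsba was. These genes were chosen for their likeness to ctsba after its values were seen, and the r carry no test.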
